A study of Homo sapiens with 46 samples.

Results

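MDA-MB231 cells, an established human breast carcinoma line, were transfected with small interfering RNA (siRNA) against the splicing factor TRA2B or with a control siRNA. These 6 samples, chosen by their cell line and treatment labels, are 3 control and 3 TRA2B siRNA libraries of the 46 samples in the series. The series also holds U87MG glioblastoma cells given the same siRNAs, cells given antisense oligonucleotides (ASOs), and treated breast tumor xenografts grown in mice. All 6 cultures received lipofectamine 3000 with 10 nM siRNA, and RNA was taken after 48 h. Both groups share the transfection, and the control is another siRNA, so untreated cells form no part of the comparison. In the deposited matrices every TRA2B siRNA library of both lines carries the same numbered siRNA name, whose meaning is not given. A single reagent may thus have been used in both lines. The labels give neither the siRNA sequences nor the number of duplexes, and they do not say that replicates came from separate cultures. The p-values therefore measure the spread between these samples, which may be technical. The 6 samples carry a cell type label of glioblastoma beside a breast carcinoma source.

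TRA2B is a relative of the serine- and arginine-rich (SR) splicing proteins. It binds purine-rich RNA, with AGAA as the core of its known binding sequence, and usually promotes inclusion of the exon it binds. TRA2B and its paralog TRA2A each carry a conserved alternative exon, the poison exon, whose inclusion yields a transcript that is not translated into full-length protein. TRA2 proteins promote inclusion of these exons, which is a known way for the 2 genes to limit their own and each other's output.

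The libraries held 84.5 M to 108.6 M counts in genes (M, 1e6), with 1.95% to 2.65% of them mitochondrial. The breast line was checked against markers. The 11 epithelial genes, which include EPCAM, KRT8 and KRT18, summed to 1673 to 1760.5 CPM (counts per 1e6 counts of a library) in control and 1617.1 to 1724 in TRA2B siRNA libraries, against 8.39 to 9.67 in the U87MG siRNA libraries. Of 10 glial genes, 8 were under 1 CPM, but the summed glial list did not set the lines apart clearly, at 39.1 to 40.1 CPM in control, 36.6 to 43.1 with TRA2B siRNA and 42.3 to 50.5 in U87MG. NES made up most of it, at 36.4 CPM in control and 43.4 in U87MG, and GFAP was at 3.23 and 1.71 CPM. OLIG2 averaged 2.01 CPM in U87MG and was at 0 in 5 of the 6 libraries here, with 0.0115 CPM in the remaining one. The epithelial markers go against the glioblastoma cell type label. The 6 libraries were close to each other: control replicate 3 had a lowest correlation of 0.9911 with its own group and a highest of 0.9913 with the TRA2B group, on log2 CPM over genes.

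TRA2B mRNA stood at 196.4, 194.5 and 186.1 CPM in the control libraries and at 22.7, 21.4 and 22.5 CPM with TRA2B siRNA. Every siRNA library lay far below every control library. The log2 change was -3.11 (SE 0.072, edgeR adjusted p = 8.55e-10). TRA2A, the paralog, moved the other way. It stood at 92.8, 89.2 and 91.4 CPM in control and at 194.0, 191.2 and 181.2 CPM with siRNA, a rise of 1.05 on the log2 scale (SE 0.042, edgeR adjusted p = 2.10e-07). In both genes the groups did not overlap.

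The TRA2A transcripts also changed in form. Inclusion of an exon is given as PSI (percent spliced in), deposited as a fraction from 0 to 1 of the transcripts at that site that carry the exon. The TRA2A alternative exon of 312 bases (GRCh38 chr7:23522121-23522432, minus strand) lies between the first 2 coding exons and is placed by GENCODE in a processed transcript without a coding sequence. Its PSI was 0.194, 0.182 and 0.189 in control and 0.036, 0.038 and 0.044 with siRNA. It was thus low in all siRNA libraries, and the fall passed the test (limma adjusted p = 0.0137). A second form of the exon, which ends 11 bases earlier, fell from 0.166 ± 0.007 to 0.037 ± 0.004 (SD, n = 3 and 3; limma adjusted p = 0.0148). The exon holds 13 AGAA and 4 GAAGAA motifs. An intron of 280 bases next to this exon (chr7:23521841-23522120) had a retention PSI of 0.540 ± 0.069 in control and 0.806 ± 0.038 with siRNA, which did not pass (limma adjusted p = 0.133). A further exon of TRA2A upstream, measured against the same exon, went from 0.133 ± 0.028 to 0.333 ± 0.088 and did not pass either (limma adjusted p = 0.278).

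The poison exon of TRA2B itself (276 bases, chr3:185931577-185931852, minus strand) lies between the first 2 coding exons. Its PSI was 0.228, 0.213 and 0.179 in control and 0.379, 0.168 and 0.192 with siRNA. The groups overlap, and 1 library, TRA2B replicate 1, is the highest of the 6. The means were 0.207 ± 0.025 and 0.246 ± 0.116 (SD, n = 3 and 3; limma adjusted p = 0.939; exact permutation p = 0.9, two-sided, with 0.1 the smallest that 3 against 3 allows). Without TRA2B replicate 1 the difference changed from 0.040 to -0.0267. A shift in this exon was not detectable between these libraries, in which TRA2B itself averaged 192.3 and 22.2 CPM.

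**Figure D1:**
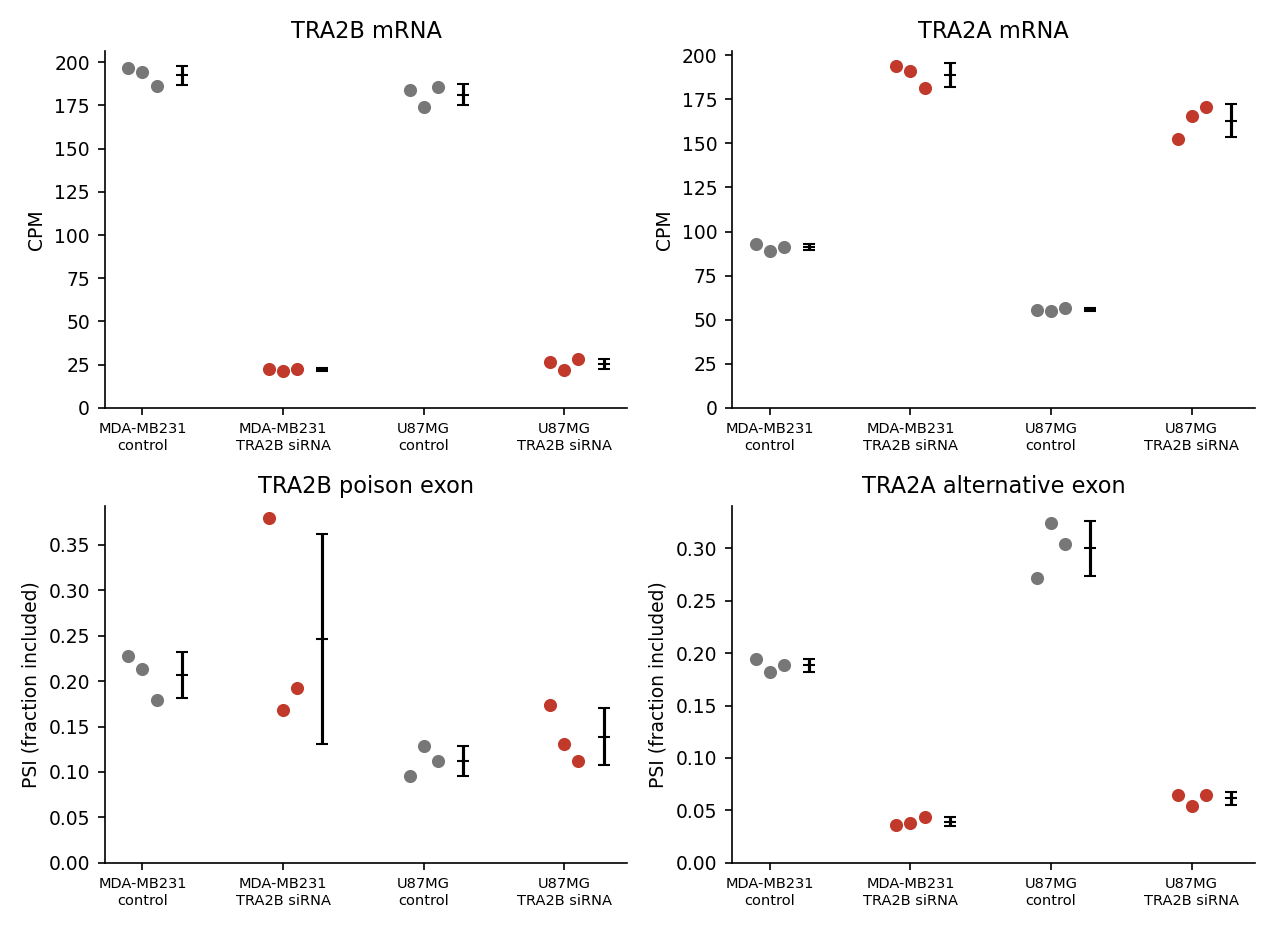
TRA2B and TRA2A levels (CPM) and the PSI of the alternative exon of each gene (fraction) in each siRNA library of MDA-MB231 and U87MG cells; points are libraries and bars are group means. In MDA-MB231 the TRA2B points drop from 186.1 to 196.4 CPM to about 22 CPM, the TRA2A points rise from 91.1 to 188.8 CPM on average, and the TRA2A exon drops while the TRA2B exon points overlap.

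Beyond these 2 genes, 46205 splicing events in 7707 genes were tested, in host genes whose log2 CPM averaged 3 or more. An event was called at an adjusted p under 0.05 (limma on arcsine square-root PSI) with a mean difference of at least 0.10. Of these, 63 were called (0.136%), in 52 genes. Inclusion fell in 39 (0.0844%) and rose in 24 (0.0519%). That balance was not stable: 22, 33 and 49 events rose and 12, 13 and 20 fell without control replicate 1, 2 and 3, and 17 rose and 13 fell at a difference of at least 0.20. Without the filter on host gene level 10 rose and 9 fell. Cassette exons, which are skipped or included whole, gave 34 of the falls (0.172% of 19721) and 20 of the rises (0.101%). No mutually exclusive exon pair was called among 19734, of which 785 had an unadjusted p under 0.05 in limma.

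The 63 calls are of 2 kinds. In 31 of them (49.2%, against 3.29% of all events tested) all 3 libraries of 1 group read exactly 0 or exactly 1. The reads behind a PSI value are not in the deposited matrix, so an exact 0 or 1 can rest on few reads. The other 32 lie away from 0 and 1, and there 26 events fell in 20 genes and 6 rose. Among calls of this kind 12 rose and 5 fell without TRA2B replicate 2, 6 rose and 2 fell without TRA2B replicate 3, and 3 rose and 2 fell at a difference of at least 0.20. The number called turned on the fit: it was 28 on the untransformed PSI scale, 12 without events at 0 or 1, 24 with the variance trend on the mean in place of the host gene level, and 0 with that trend and a filter on the PSI range together (3533 events then had an unadjusted p under 0.05 in limma). It was 191 with all 12 siRNA libraries in 1 fit, where 24 of the 31 away events present were called again, and 4 of the 16 at 0 or 1. Of the 32 events away from 0 and 1, 21 kept their call in 3 or fewer of up to 15 other settings (median 2). The 312-base TRA2A exon kept it in 10, the CCDC88A intron in 9, SGO1 in 7 and NUF2 in 6. UIMC1, GINS1 and SMAD5 kept it in 2, and HMGN1, MAP4K4, RO60 and RRBP1 in 0.

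Several of the exons that fell away from 0 and 1 are coding. They are shown here, with AGAA in capitals, as 5′ to 3′ transcribed sequence from GENCODE 29 transcripts on GRCh38, because AGAA is the core TRA2B motif. They are the exons of at most 300 bases whose whole length is coding and which were called, leaving out MAP4K4 and a longer form of the CD44 exon. The UIMC1 exon is chr5:176969053-176969291 (minus strand), the NUF2 exon chr1:163345678-163345818 (plus), the CD44 exon chr11:35206115-35206243 (plus), the NCOR1 exon chr17:16151590-16151616 (minus), the GINS1 exon chr20:25417104-25417202 (plus), the DEPDC1 exon chr1:68494430-68494695 (minus) and the PIK3C2A exon chr11:17136482-17136625 (minus).
UIMC1: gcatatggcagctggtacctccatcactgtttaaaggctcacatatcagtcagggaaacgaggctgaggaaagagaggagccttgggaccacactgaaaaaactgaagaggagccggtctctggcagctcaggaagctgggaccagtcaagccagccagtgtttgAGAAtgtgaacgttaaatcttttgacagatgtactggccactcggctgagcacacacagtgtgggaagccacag
NUF2: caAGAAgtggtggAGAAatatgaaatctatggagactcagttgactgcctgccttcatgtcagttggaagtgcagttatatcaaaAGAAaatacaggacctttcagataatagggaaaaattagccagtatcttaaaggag
CD44: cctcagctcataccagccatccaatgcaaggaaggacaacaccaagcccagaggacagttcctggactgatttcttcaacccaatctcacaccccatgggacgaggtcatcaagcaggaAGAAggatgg
NCOR1: tggagtacctgcaaggcgcatgatgaa
GINS1: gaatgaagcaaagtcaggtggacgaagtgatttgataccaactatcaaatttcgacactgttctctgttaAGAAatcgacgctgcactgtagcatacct
DEPDC1: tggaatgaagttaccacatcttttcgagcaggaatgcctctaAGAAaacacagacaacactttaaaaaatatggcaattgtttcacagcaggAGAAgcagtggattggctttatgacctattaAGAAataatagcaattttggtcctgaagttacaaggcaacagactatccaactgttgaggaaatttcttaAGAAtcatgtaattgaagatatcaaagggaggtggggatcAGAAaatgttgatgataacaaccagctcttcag
PIK3C2A: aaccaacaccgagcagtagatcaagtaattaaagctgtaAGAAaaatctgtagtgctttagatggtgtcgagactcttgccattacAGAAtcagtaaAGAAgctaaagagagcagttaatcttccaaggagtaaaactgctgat
The DEPDC1 exon holds 5 AGAA motifs, and NUF2 and PIK3C2A hold 3 each. UIMC1, CD44 and GINS1 hold 1 each, and in CD44 it ends a GAAGAA. The NCOR1 exon of 27 bases holds none, and neither does the MAP4K4 exon of 162 bases.

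SGO1 and NUF2, both among the 12 largest falls, act in cell division. SGO1 (shugoshin) protects sister chromatid cohesion at centromeres. Its 807-base exon (chr3:20174249-20175055) had a PSI of 0.847, 0.890 and 0.846 in control and 0.527, 0.544 and 0.537 with siRNA (limma adjusted p = 0.0218). It is wholly coding, a multiple of 3 in length, and holds 14 AGAA motifs. NUF2 is a subunit of the kinetochore complex that binds microtubules. The NUF2 exon shown above was at 0.964, 0.957 and 0.964 in control and at 0.782, 0.757 and 0.781 with siRNA (limma adjusted p = 0.0148). In both genes all siRNA libraries lay below all control libraries. The SGO1 gene rose by 0.22 on the log2 scale (edgeR adjusted p = 0.00811), while NUF2 did not pass the gene test (adjusted p = 0.745).

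MKI67, GINS1 and DEPDC1 were outside the 12 largest falls and were picked after their values were seen. MKI67 encodes the proliferation antigen Ki-67. Its 1080-base coding exon (chr10:128114928-128116007, 19 AGAA) had a PSI of 0.653, 0.634 and 0.623 in control and 0.457, 0.474 and 0.468 with siRNA (limma adjusted p = 0.0191). GINS1 is a subunit of the replicative helicase. Its exon fell from 0.315 ± 0.007 to 0.155 ± 0.005 (SD, n = 3 and 3; limma adjusted p = 0.0384). DEPDC1 lost 2 exons: the one of 852 bases (chr1:68482046-68482897, 13 AGAA) fell from 0.314 to 0.150, and the one of 266 bases from 0.892 to 0.755 (limma adjusted p = 0.0476 and 0.0247).

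CD44, the hyaluronan receptor with many variable exons, showed a fall of a 129-base variable exon. Its PSI was 0.393, 0.425 and 0.396 in control and 0.219, 0.214 and 0.196 with siRNA (limma adjusted p = 0.0186). A form with 3 more bases at its start fell from 0.407 to 0.218. In the fit of all 12 siRNA libraries that form was not called (limma adjusted p = 0.436). CD44 exons of 114 and 129 bases upstream read 1 in all control libraries and averaged 0.797 and 0.846 with siRNA. The CD44 gene stayed uncalled, at 979.6 CPM in control and 1049.6 CPM with siRNA (edgeR adjusted p = 0.382).

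The other named falls away from 0 and 1 were in UIMC1, NCOR1, SMAD5 and GATAD2A. UIMC1 (RAP80) brings the BRCA1-A complex to damaged DNA. Its exon stood at 0.877, 0.870 and 0.894 in control and at 0.654, 0.609 and 0.591 with siRNA (limma adjusted p = 0.0423), and its length is not a multiple of 3. The UIMC1 gene fell by 0.32 on the log2 scale (edgeR adjusted p = 0.000997). NCOR1 is a corepressor of nuclear receptors, and its exon fell from 0.594 ± 0.019 to 0.416 ± 0.009 (limma adjusted p = 0.0317). Noncoding or UTR exons fell in SMAD5, a mediator of BMP signalling (75 bases, 0.428 to 0.244), and in GATAD2A, a NuRD subunit (89 bases, 0.440 to 0.254).

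The remaining falls away from 0 and 1, also picked after their values were seen, were smaller. ACAD9 (0.956 to 0.819), AZIN1 (0.511 to 0.378), HMGN1 (0.776 to 0.622), RO60 (0.607 to 0.447), MAP4K4 (0.817 to 0.688), RRBP1 (0.380 to 0.267) and PIK3C2A (0.923 to 0.816) were among them. PNPLA8, a phospholipase, showed both directions: its large exon of 1139 bases, 20 AGAA among them, fell from 0.972 to 0.868, and a 46-base exon before it rose from 0.624 to 0.820 (limma adjusted p = 0.0427 and 0.0362).

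Among the 6 events that rose away from 0 and 1, a pair are retained introns. The intron of 511 bases in CCDC88A (chr2:55291165-55291675), which encodes the actin-binding protein girdin, was at 0.405, 0.407 and 0.376 in control and at 0.696, 0.700 and 0.744 with siRNA (limma adjusted p = 0.0181). The intron of 305 bases in CTNNB1 (chr3:41239355-41239659), which encodes beta-catenin, was at 0.604, 0.608 and 0.599 in control and at 0.728, 0.734 and 0.711 with siRNA (limma adjusted p = 0.0317). The groups stood apart in both. MIR4435-2HG, a noncoding RNA (0.317 to 0.491), DNAJC10, an endoplasmic reticulum chaperone (0.249 to 0.473), and an untranslated exon of FAM192A (0.365 to 0.691) also rose.

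**Figure D2:**
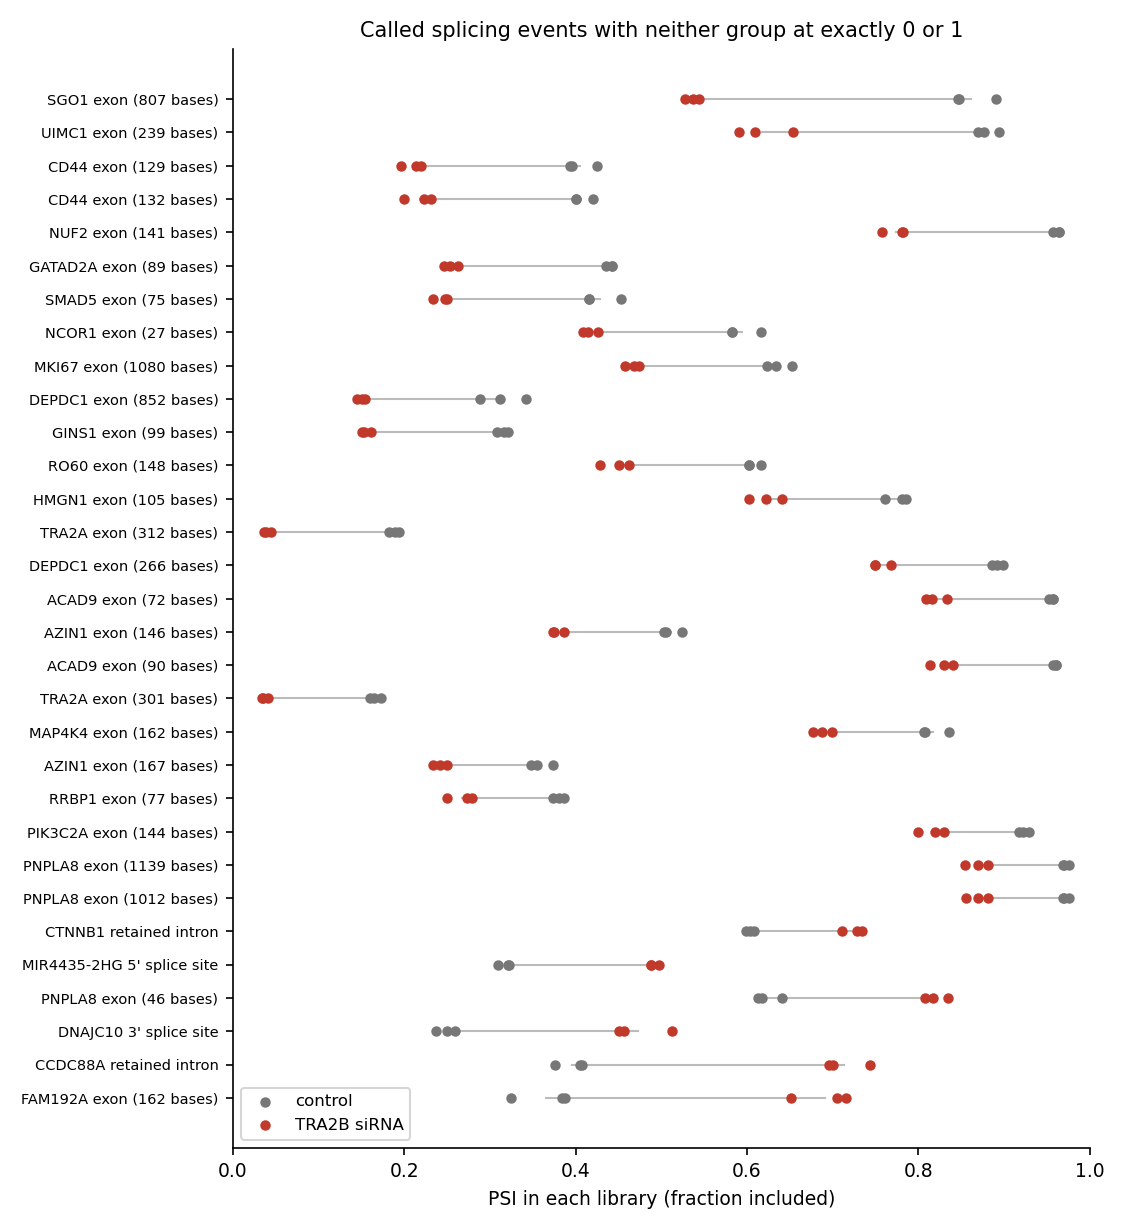
PSI (fraction, 0 to 1) in each of the 6 MDA-MB231 siRNA libraries for called events away from 0 and 1, of which 1 is not shown; points are libraries, grouped as control and TRA2B siRNA. The SGO1 exon drops from about 0.86 to about 0.54, and the CCDC88A intron climbs from 0.396 to 0.713 on average.

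Of the 12 cassette exons named for the largest falls, 6 had 1 group at 0 or 1: AP2B1, SAMD9L, DTX2, TTC26, HELQ and a CD44 exon of 114 bases. AP2B1, an adaptor subunit of clathrin coats, was at 1 in all control libraries and at 0.567, 0.466 and 0.344 with siRNA. DTX2 was at 0.409, 0.409 and 0.492 in control and at 0 in all siRNA libraries. On the rising side 11 of the 12 were of this kind, FAM192A being the exception. FMNL3, a formin, went from 0.280, 0.097 and 0.178 to 1 in all siRNA libraries (limma adjusted p = 0.0148), and PLS1, STAT2, EPB41L1, ZBTB8OS, LINC00662, DNAH14, TBC1D12, SERPINH1, POC1A and USP14 also ended at 1. Of the other event types, NPEPL1, SLC38A9, L3MBTL1 and TTC5 had all control libraries at 1. The NPEPL1 alternative 5' splice site went to 0.230, 0.230 and 0.070 with siRNA.

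The called exons were set beside all tested cassette exons for length and sequence, neither of which chose them. The 26 exons that fell away from 0 and 1 had a median length of 147 bases, against 109 for the 13654 different exons tested. Of the 26, 7 were 300 bases or longer (26.9%, against 5.16%), from 5 genes. AGAA, searched on the transcribed strand, was in 22 of the 26 (84.6%), against 54.2% of the 13417 tested exons with a sequence. GAAGAA, each copy of which contains an AGAA, was in 9 (34.6%, against 10.9%). Pooled over bases, these exons held 1.74 AGAA per 100 bases, and all tested exons held 0.85. Length matters for these shares. Among exons under 300 bases, GAAGAA was in 2 of 19 that fell (10.5%) and in 9.61% of all; among longer exons it was in 7 of 7 and in 36.3% of all. Some members share sequence, since TRA2A, PNPLA8, ACAD9, AZIN1 and CD44 each give a pair of overlapping exon forms. The 8 falling exons with a group at 0 or 1 held 0.694 AGAA per 100 bases, and the 18 such rising exons held 0.696, close to all tested exons. These shares are a description, and no test was made of them.

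Falls were also more frequent in exons with GAAGAA across all cassette exons, without use of the calls. Over 12496 exons with a sequence and no group at 0 or 1, 6.98% fell by at least 0.05 with no overlap between groups, and 5.43% rose that way. The falling share was 6.43% of 11122 exons without GAAGAA, 10.5% of 1117 with 1 copy and 15.6% of 257 with 2 or more. The rising share was 5.49%, 4.92% and 4.67% in the same order. In exons of 300 bases or longer the falling share went from 6.28% of 398 without the motif to 25.5% of 110 with 2 or more. The median lengths of these sets were 415 and 1149.5 bases, so length and number of motifs cannot be told apart there. In shorter exons it went from 6.43% to 9.97% with 1 copy and was 8.16% of 147 with 2 or more.

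Known TRA2 target exons were taken as a list of 13 genes. It gave 150 tested events in 11 genes, of which 6 fell, all in TRA2A and CD44, and 0 rose. The large NASP exon, which separates the somatic from the testis form of this histone chaperone, went from 0.163 ± 0.010 to 0.108 ± 0.009 and did not pass (limma adjusted p = 0.163). An ATRX exon stood at 0.703 ± 0.043 and 0.581 ± 0.006 (limma adjusted p = 0.225), and a PPP1R12A exon at 0.534 ± 0.045 and 0.660 ± 0.017 (limma adjusted p = 0.248). Among 40 mitosis genes with events, NUF2 was the 1 gene with calls. Among 23 S phase genes it was GINS1. Of 21 hnRNP genes and 13 genes of nonsense-mediated decay, none had a called event by limma. Over all events tested 0.0844% fell and 0.0519% rose, and 52 of 7707 genes had a call. With so few calls, 0 or 1 called gene in a list of this size says little about the list.

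At the level of whole genes, 23141 were tested with edgeR, and 1676 changed at an adjusted p under 0.05 (7.24%). Of these 844 rose (3.65%) and 832 fell (3.6%). The changes were small: the median rise was 0.29 and the median fall -0.28 on the log2 scale, and 1422 of the 1676 were under 1.5-fold. Only 95 reached 2-fold, 67 up and 28 down, and 5 of those had an average log2 CPM of 3 or more. These are TRA2B, TRA2A, SLC36A1, MSANTD3-TMEFF1 and TOMM6. TOMM6, picked after its values were seen, has overlapping groups, at 54.1 ± 19.2 CPM in control and 26.2 ± 8.76 CPM with siRNA (edgeR adjusted p = 0.0425). DESeq2 called 2638 genes, and leaving out 1 library gave 796 to 1408, the fewest without control replicate 1. Counts in bulk cells do not tell fewer cells of a kind from less RNA per cell.

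SLC36A1, a lysosomal amino acid transporter, had the largest rise among the named genes whose log2 CPM averaged 3 or more. It was at 10.4, 12.4 and 11.02 CPM in control and at 24.8, 25.3 and 27.8 CPM with siRNA (log2 change 1.20, SE 0.072, edgeR adjusted p = 8.87e-06). LOX, lysyl oxidase, which crosslinks collagen, was at 154.7, 168.8 and 133.7 CPM in control and at 303.4, 314.9 and 272.2 CPM with siRNA (log2 change 0.96, SE 0.19, edgeR adjusted p = 0.0103). JAG1, a Notch ligand, was at 143.7, 159.2 and 123.6 CPM in control and at 250.5, 252.2 and 233.2 CPM with siRNA (log2 change 0.79, SE 0.072, edgeR adjusted p = 0.000128). In each of these genes every siRNA library lay above every control library, which the choice of the largest rises required. Of all genes tested, 27.1% had no overlap between the groups.

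COL6A3, a collagen VI chain, rose from 83.2 to 135.7 CPM, a log2 change of 0.71. NPR3, the clearance receptor for natriuretic peptides, rose by 0.99, MSRB3, a methionine sulfoxide reductase, by 0.80, CENPH, a kinetochore protein, by 0.73 and HHIP, an antagonist of hedgehog ligands, by 0.78 on the log2 scale. IGFBPL1 (0.92) and TAPT1 (0.90) rose as well. FARP2, a guanine nucleotide exchange factor, rose by 0.73, and STK25 overlaps it on the opposite strand with 111% of its counts. MSANTD3-TMEFF1 (1.10) is a readthrough annotation that shares exons with MSANTD3, which has 456% of its counts. Without knowing how shared or antisense reads were assigned, these last values are uncertain.

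Among the genes that fell, NGLY1 had the smallest p after TRA2B. NGLY1 removes sugar chains from misfolded glycoproteins. It stood at 46.7, 45.1 and 41.9 CPM in control and at 25.3, 24.8 and 24.3 CPM with siRNA (log2 change -0.85, SE 0.045, edgeR adjusted p = 3.33e-06). An exon of NGLY1 had a PSI of 0.833 ± 0.019 in control and 0.536 ± 0.080 with siRNA, which did not pass (limma adjusted p = 0.112). IL11, a cytokine of the interleukin 6 family, was at 11.5, 11.3 and 12.5 CPM in control and at 7.15, 7.22 and 6.42 CPM with siRNA (log2 change -0.76, edgeR adjusted p = 0.00108). ZNF37A, a zinc finger gene, was at 71.9, 71.8 and 69.9 CPM in control and at 49.3, 42.9 and 42.5 CPM with siRNA (log2 change -0.67, edgeR adjusted p = 0.000169). The groups stood apart in all 3 genes, which the choice of the largest falls required.

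TP53INP1, a p53-induced gene, fell by 0.76 on the log2 scale, MTM1, a phosphoinositide phosphatase, fell by 0.70 and NLN, the peptidase neurolysin, fell by 0.63. SEMA6B, a semaphorin, fell by 0.61 and PARD6B, a cell polarity protein, fell by 0.60. EXD2, an exonuclease, fell by 0.62. GXYLT2, which adds xylose to Notch repeats, fell by 0.79, and PPP4R2 overlaps it on the same strand with 939% of its counts. PIGF, of the GPI anchor pathway, fell by 0.61, with RHOQ on the opposite strand at 308% of its counts. NOX5, an NADPH oxidase, had controls at 18.6, 17.9 and 10.4 CPM and siRNA libraries at 9.49, 10.0 and 5.81 CPM (log2 change -0.89, edgeR adjusted p = 0.0453). In 20 of these 24 genes the call held in all 11 other settings, and HHIP, NOX5, EXD2 and PIGF lost it in at least 4 of the 6 fits that leave out 1 library.

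**Figure D3:**
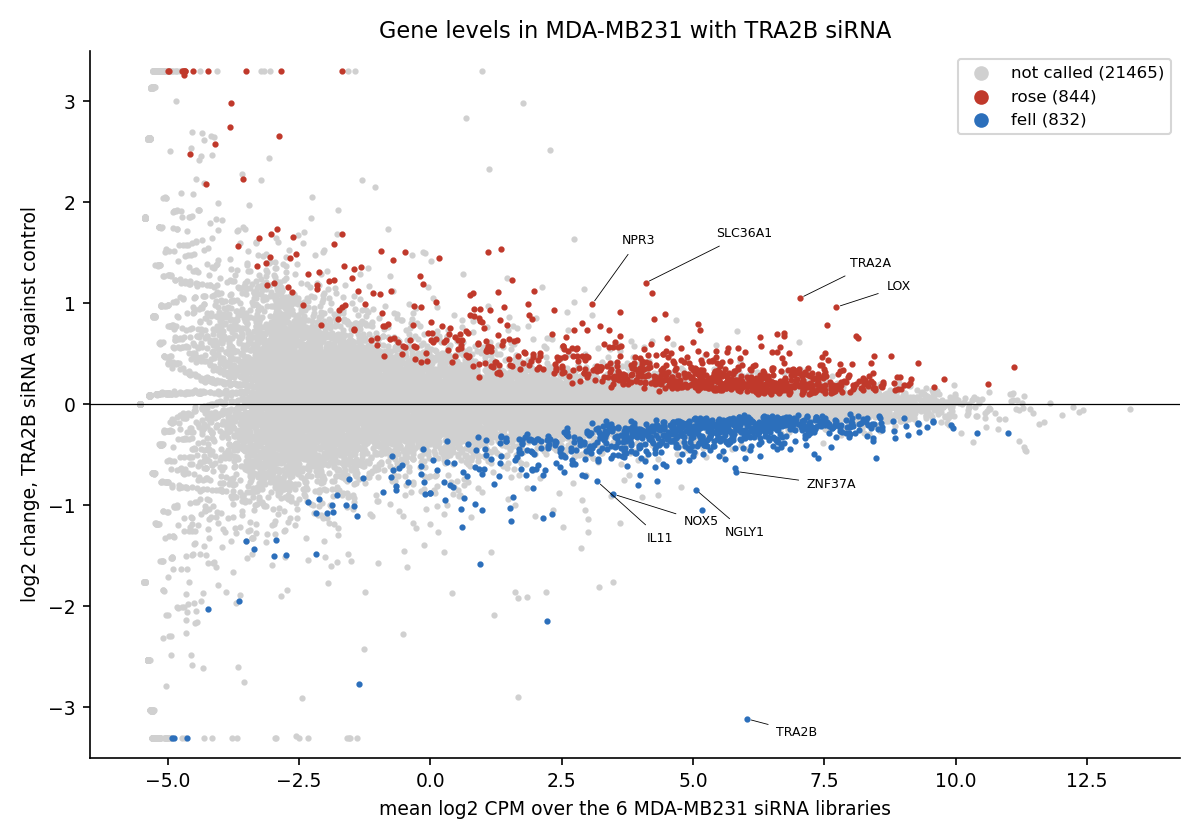
Log2 change with TRA2B siRNA (vertical axis) against mean log2 CPM over the 6 MDA-MB231 libraries (horizontal axis) for the 23141 genes tested, with genes that rose in red and that fell in blue; changes beyond the axis are drawn at its edge. TRA2B at -3.11 stands far below all other genes of its level, and most called genes lie near 0.

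Apart from the TRA2 genes, the splicing factor genes that passed changed by at most 0.39 on the log2 scale. Of 13 SR protein genes, TRA2A included, 2 rose and 1 fell (15.4% and 7.69%, against 3.65% and 3.6% of all genes tested). SRSF10 rose by 0.22 on the log2 scale, from 223.1 to 259.9 CPM, and SRSF4 fell by 0.22, from 104.6 to 89.9 CPM. CLK2, a kinase of SR proteins, rose by 0.34 and was the 1 of 7 SR kinases called, where 7.24% of all genes tested were called. SRRM1, an SR-related nuclear matrix protein, rose by 0.39 (edgeR adjusted p = 5.72e-05) and RBFOX2, a splicing regulator, rose by 0.33, while U2AF2, the large U2AF subunit, fell by 0.26 and the cold-induced RBM3 fell by 0.31. HNRNPM, HNRNPAB and HNRNPA3 rose, 3 of 25 hnRNP genes, by 0.14 to 0.19, and none of the 3 was called when control replicate 1 or 2 or TRA2B replicate 1 or 2 was left out. None of 14 genes of nonsense-mediated decay passed in edgeR on the 12 siRNA libraries or in DESeq2. With 7.24% of all genes called, 0 of 14 says little about this list. In it 2 genes were at an unadjusted p under 0.05, and 1 rose in edgeR on the 6 MDA-MB231 libraries alone.

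Some DNA replication and repair genes rose by small amounts. Of 39 S phase genes 8 rose (20.5%, against 3.65% of all genes tested) and 0 fell, with a list median of 0.12 against 0 for all genes tested. RFC2, a subunit of the clamp loader, went from 53.3 to 62.8 CPM (log2 change 0.24, edgeR adjusted p = 0.00141), and RRM1, the large subunit of ribonucleotide reductase, from 209.6 to 244.3 CPM (log2 change 0.22, edgeR adjusted p = 0.00195). RFC3, RFC4, CCNE1, POLE2, POLD3 and MCM10 rose by 0.14 to 0.28. Of 23 DNA repair genes 5 rose (21.7%) and 1 fell. RAD54L, a recombination motor protein, rose by 0.36, with LRRC41 on the opposite strand at 172% of its counts, and FANCD2 and FANCI, the partners of the Fanconi anemia core step, rose by 0.28 and 0.20, while BARD1, the partner of BRCA1, fell by 0.29. The S phase count was 2 without control replicate 1 or TRA2B replicate 2, 3 without control replicate 3, 4 without control replicate 2 or TRA2B replicate 3, 7 without TRA2B replicate 1 and 13 in DESeq2. The repair list had 3 rises in each fit that leaves out 1 library, and no fall without control replicate 1. In mitosis, 3 of 41 rose, 7.32% (BIRC5 0.18, BUB3 0.18 and KIF23 0.12) and 1 fell (PLK1 -0.27), with a list median of 0.02. With any 1 library left out 1 to 2 mitosis genes rose, the fewest without control replicate 1 or TRA2B replicate 2. The mitosis rises numbered 4 in DESeq2, 1 with RLE size factors and 0 without the low-count filter.

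Matrix genes moved in both directions. Of 40 collagens and matrix genes 8 rose and 3 fell (20% and 7.5%, against 3.65% and 3.6% of all genes tested), with a median of 0.05. Besides LOX and COL6A3, COL8A1 went from 77.8, 82.7 and 69.1 CPM to 125.4, 127.5 and 120.0 CPM (log2 change 0.70, edgeR adjusted p = 4.81e-05). Fibronectin (FN1) rose from 1942 to 2511 CPM (0.37), and TNC, LAMA4 and SPARC rose too, SPARC from a level near 1 CPM. COL13A1 (-0.33), COL5A1 (-0.18) and LAMA5 (-0.44) fell. Between 5 and 7 matrix genes rose when 1 library was left out, the fewest without control replicate 1, and 1 fell, or 2 without control or TRA2B replicate 3.

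Of 20 genes listed for YAP, the growth regulator of the Hippo pathway, 4 rose and 3 fell (20% and 15%). The list holds WWTR1 (TAZ), a relative of YAP, beside YAP targets. With 1 library left out 1 to 3 rose, the fewest without control replicate 3 or TRA2B replicate 1 or 2, and 1 to 3 fell, the fewest without replicate 1 or 2 of either group. ANKRD1 rose by 0.50, from 153.8 to 218.0 CPM, with WWTR1 (0.30), CCN1 (0.21) and TGFB2 (0.17). AMOTL1 (-0.19), AJUBA (-0.17) and ARHGEF17 (-0.36) fell. Among epithelial genes CLDN1, a tight junction claudin at a low level, rose from 1.92 to 4.48 CPM (log2 change 1.23) and 17 others of 18 did not pass. Of 15 mesenchymal genes SNAI2 (0.33) and TGFBI (0.32) rose and NT5E fell (-0.27). The summed mesenchymal markers were at 3540 to 3892 CPM in control and at 3661 to 4037 CPM with siRNA, so those sums overlap.

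Over all genes tested 3.65% rose and 3.6% fell. Of 25 sterol synthesis genes 4 fell, among them SREBF1 (-0.34), PMVK (-0.30) and TM7SF2 (-0.67), which is 16% of the list, and SC5D rose (0.22). VPS51 overlaps TM7SF2 on the same strand with 343% of its counts. Of 29 hypoxia and glycolysis genes 3 fell, 10.3% (P4HA1 -0.28, PFKFB3 -0.24 and BNIP3 -0.33) and SLC2A3 rose (0.46), with a median of -0.11. Leaving out 1 library gave 1 to 7 falls in that list, 7 without control replicate 3, 3 without TRA2B replicate 2 and 1 without each of the others. HYOU1, an endoplasmic reticulum chaperone, went from 469.0, 468.3 and 354.5 CPM to 303.6, 324.5 and 263.8 CPM (log2 change -0.53, edgeR adjusted p = 0.0079), the 1 call among 19 such chaperones. None of 28 integrated stress response genes and none of 40 oxidative phosphorylation genes passed in edgeR on the 12 siRNA libraries. DESeq2 called 3 and 2, and 5 and 4 had an unadjusted p under 0.05. Without control replicate 3, 4 of the stress response genes fell, and with a replicate block 4 fell and 1 rose.

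Interferon and cytokine genes were called at shares of 5.41% and 7.41%, near the 7.24% of all genes tested. Of 37 interferon response genes SAMD9L rose (0.19) and OASL fell (-0.39). Of 27 genes of NF-kB and cytokines IL11 fell and CCL2 rose, from 0.568 to 1.12 CPM. Of 24 p53 targets 25% were called: 3 rose (CCNG1 0.36, SESN1 0.24 and PLK2 0.15) and 3 fell (TP53INP1 -0.76, RRM2B -0.28 and ZMAT3 -0.23), with 1 rise when any 1 library but TRA2B replicate 3 was left out (2 without that one) and 2 to 3 falls. Of 16 snoRNA host genes SNHG3 (0.35), SNHG16 (0.35) and SNHG1 (0.22) rose; RCC1 overlaps SNHG3 on the same strand with 260% of its counts, so that value is uncertain.

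**Figure D4:**
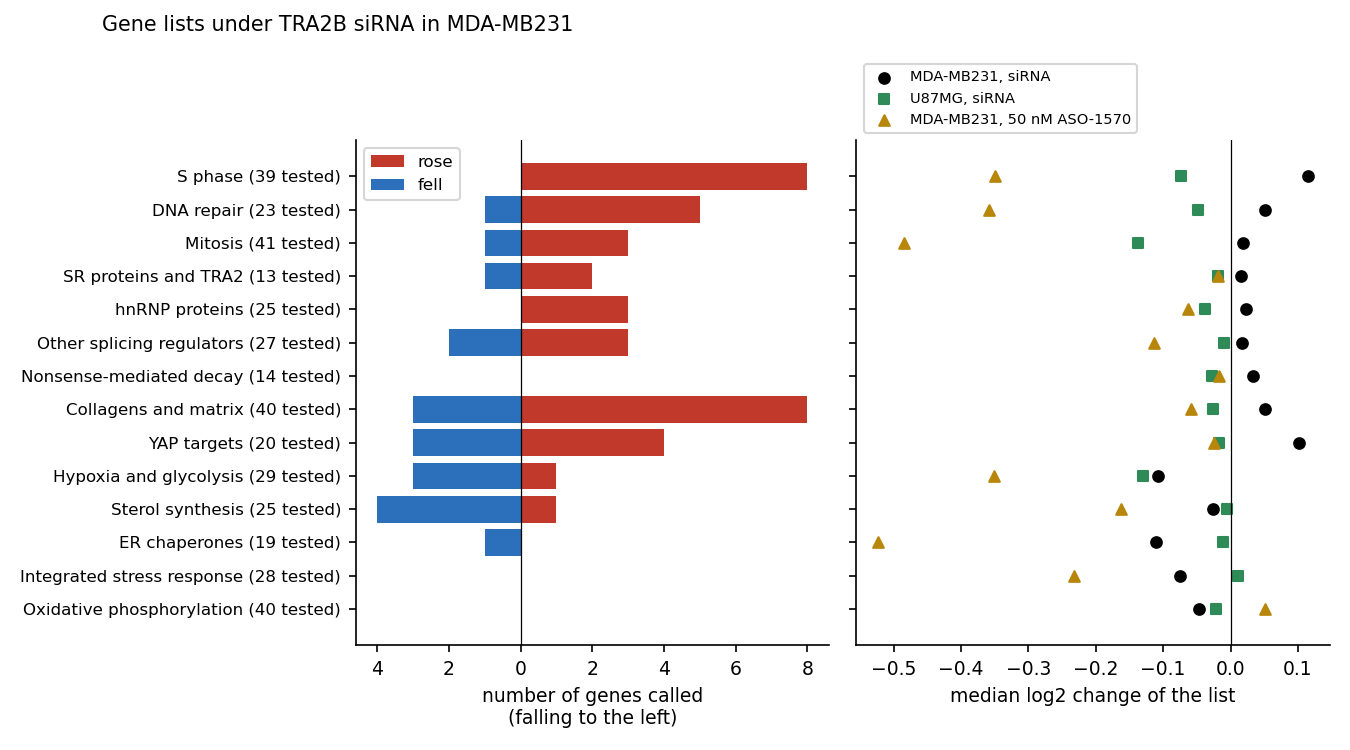
Left, the number of genes of each list that rose or fell with TRA2B siRNA in MDA-MB231; right, the median log2 change of each list in MDA-MB231 siRNA, U87MG siRNA and MDA-MB231 50 nM ASO-1570 libraries. The S phase, DNA repair and mitosis lists sit near or above 0 with siRNA here and below 0 in the other 2 comparisons, where the mitosis medians are -0.14 and -0.48.

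The same siRNA experiment in U87MG cells, with its own 3 control and 3 TRA2B libraries, shows which changes recurred. There 971 genes changed (4.2%), of which 370 rose (1.6%) and 601 fell (2.6%). Of the genes that rose here 142 also rose in U87MG (16.8% of those here, 38.4% of those there), and of those that fell 254 also fell (30.5% and 42.3%). TRA2B fell by 2.83 on the log2 scale in U87MG. NGLY1 (-1.10), ZNF37A (-0.93), GXYLT2 (-0.68), MSANTD3-TMEFF1 (0.88) and NLN (-0.50) passed there too. A direct test of the difference between lines called 122 genes (0.527%), and leaving out 1 library gave 26 to 92, the fewest without U87MG TRA2B replicate 1.

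Matrix and Notch ligand genes were among those differences. LOX was at 1360 CPM in U87MG control and 985 CPM with siRNA, so its log2 change of -0.47 there differed from the rise here by 1.43 (edgeR adjusted p = 0.0465 for the difference). COL8A1 stood at 179.7 and 179.5 CPM in U87MG (difference of the log2 changes 0.70, edgeR adjusted p = 0.00374). COL6A3 differed by 0.86, JAG1 by 0.64 and SLC36A1 by 0.78. TRA2A rose by more in U87MG, 1.55 on the log2 scale (difference -0.50, edgeR adjusted p = 0.00711). FANCD2, FANCI, RFC3 and BIRC5 differed by 0.24 to 0.34: each rose here, and in U87MG none of the 4 was called.

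Called events mostly had the same sign in both lines where PSI lay away from 0 and 1. Of 25 such falling events with a value in U87MG, 25 were lower there too, with a median difference of -0.0993 against -0.149 here. Of 6 rising events 5 had the same sign. The falling events are not independent, since TRA2A, PNPLA8, ACAD9 and AZIN1 each give a pair of overlapping exon forms. No same-sign share was computed for all events tested. Of the events with a group at 0 or 1, 2 of 6 falling and 4 of 11 rising ones had the same sign. The SGO1 exon went from 0.65 to 0.32 in U87MG, the NUF2 exon from 0.981 to 0.810, and the TRA2A exon from 0.300 to 0.0613. UIMC1 started from a lower PSI there, 0.339, and was at 0.234 with siRNA. One event of 33104 differed between lines by limma (0.00302%), the NPEPL1 splice site, with 0.318 and 0.284 in U87MG.

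**Figure D5:**
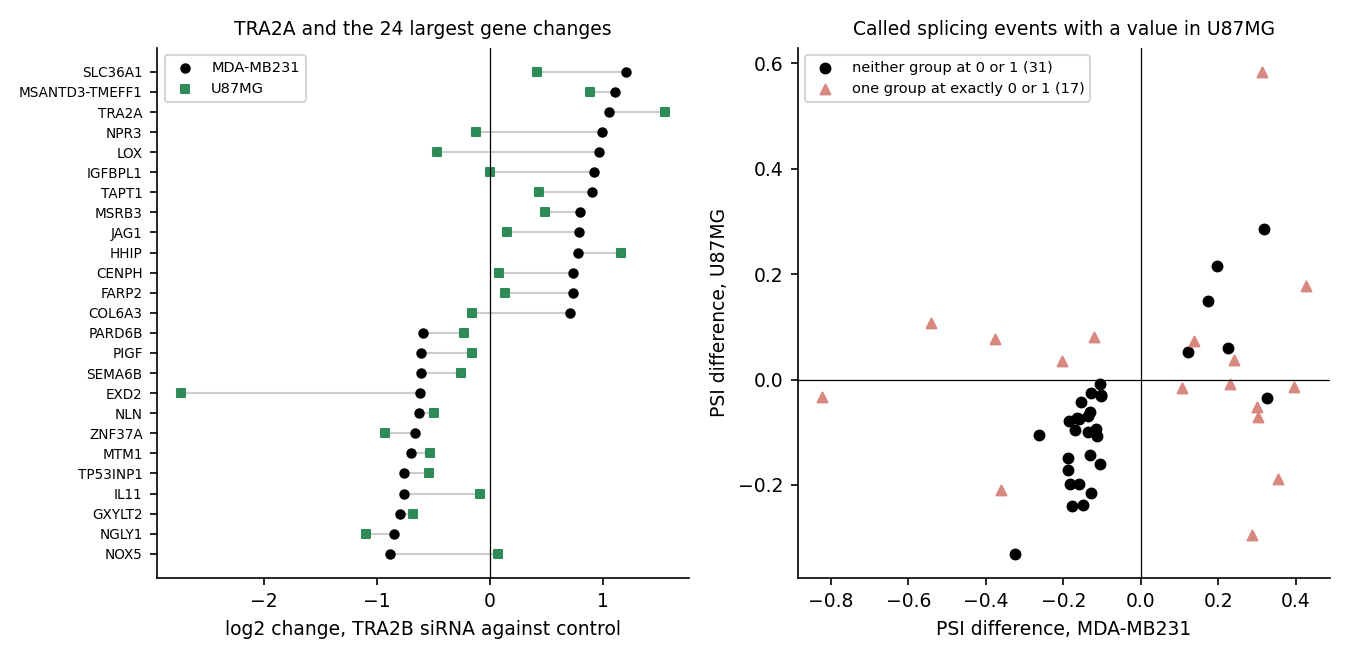
Left, log2 changes of named genes with TRA2B siRNA in MDA-MB231 (circles) and U87MG (squares); right, the PSI difference of each called event in MDA-MB231 (horizontal axis) and U87MG (vertical axis). LOX and JAG1 have separated symbols, and the events away from 0 and 1 fall in the same quadrant in 30 of 31 cases.

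A second TRA2B-directed agent, ASO-1570 at 50 nM against a control ASO at 50 nM, was given to MDA-MB231 cells in another experiment of 3 and 3 libraries. Agent and experiment cannot be told apart in this contrast. There TRA2B fell by 0.76 and TRA2A rose by 0.65 on the log2 scale, and 33.5% of 21461 genes changed. The siRNA and ASO effects differed in 4436 genes (20.7%). Of 830 genes that rose with siRNA and were tested in both, 184 also rose with the ASO (22.2%) and 242 fell. Of 826 that fell with siRNA, 368 also fell (44.6%) and 102 rose. Over all 21461 genes, 14.9% rose and 18.6% fell with the ASO.

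The cell cycle lists differed between the agents. With the ASO 40 of 41 mitosis genes, 33 of 39 S phase genes and 20 of 23 repair genes fell and 0 rose, where 18.6% of all genes fell (14.9% rose). The difference between the agents passed in 40, 34 and 15 of them. RRM1 changed by 0.22 with siRNA and -0.24 with the ASO (edgeR adjusted p = 5.66e-05 for the difference), and FANCI by 0.20 and -0.998. Ranked by the p of the difference, the first 6 genes included TRA2B, LRRC58, CITED2, MRPS27 and MAP2K4. LRRC58 was at 0.32 with siRNA and -1.09 with the ASO, MAP2K4, a stress kinase activator, at 0.38 and -0.87, and CITED2, a transcriptional coregulator, at -0.25 and 0.81.

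The called exons were compared as well. Of the falling events away from 0 and 1, 18 of 24 had the same sign with the ASO, and 4 of 6 rising ones did. The NCOR1 exon went from 0.594 to 0.334 with the ASO and the TRA2A exon from 0.201 to 0.115. The MKI67 exon stood at 0.556 and 0.610 and the UIMC1 exon at 0.778 and 0.851, opposite in sign to siRNA. The TRA2B poison exon was at 0.270 ± 0.031 in ASO control and 0.482 ± 0.101 with ASO-1570, against 0.207 and 0.246 in the siRNA experiment. These PSI differences between agents were not tested.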

How the data were processed

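RNA was prepared with a stranded mRNA kit and sequenced as 151-base pairs, per the labels' protocols. The submitters' processing notes name Trimmomatic, STAR, StringTie and GRCh38; versions and the strand used in counting are not given in the sources used here. Gene counts are raw whole numbers deposited by the authors. PSI values are a fraction from 0 to 1 deposited by the authors as an rMATS matrix without reads per event. Genes were tested with edgeR 4.0.16 (quasi-likelihood, low-count filter, TMM, all 12 siRNA libraries, R 4.3.3). Events were tested with limma 3.58.1 in the 6 libraries, with a variance trend on host gene level, where the host had a mean log2 CPM of at least 3. P-values were Benjamini-Hochberg adjusted over the table. The tests were also run on simulated data, in which the changed events lay away from 0 and 1. That run does not bear on calls with a group at 0 or 1. Named genes were the 12 largest rises and falls (protein-coding, log2 CPM averaging 3 or more, no overlap), up to 4 members per list by p, and 6 per difference; named exons were the 12 largest falls and rises, 1 per gene. Members, the 29 lists and the splicing test were chosen with earlier results of these data known. Alternatives included DESeq2 1.42.0, other filters, a replicate block and leaving out each library. Some genes are not reported here.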

Additional observations from a re-analysis of the deposited data

Results flagged for a closer look

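By the edgeR test of the difference, the siRNA effect differed between MDA-MB231 and U87MG cells in 21 of 145 named genes. In 20 of these it was the higher in MDA-MB231. Over all genes tested 122 of 23141 differed (0.527%), 93 of them higher in MDA-MB231 and 29 lower. Many named genes were chosen by their change in MDA-MB231, and some by this same test. The share and direction among the named genes are therefore partly set by that choice. Values are the log2 change in MDA-MB231 minus that in U87MG. Matrix and signalling genes gave LOX 1.43, CCL2 1.15, NPR3 1.11, COL6A3 0.86, SPARC 0.73, COL8A1 0.70 and JAG1 0.64. Replication, repair and division genes gave CENPH 0.65, FANCD2 0.34, RFC3 0.34, FANCI 0.24, BIRC5 0.24, NASP 0.22 and RCC2 0.40. The others were SETD6 0.91, SLC36A1 0.78, FARP2 0.60, SLC1A3 0.54, ITSN1 0.49, SNAI2 0.36 and TRA2A -0.50. SETD6 lies across CNOT1, which has 3802% of its counts on the opposite strand. Control levels differ between the lines in NPR3, JAG1 and CENPH, among others, with JAG1 at 18.6 CPM in U87MG. LOX and COL8A1 were higher in U87MG control than in MDA-MB231 control, as given above. CCL2 and SPARC were at low levels in MDA-MB231.

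The NPEPL1 alternative 5' splice site differed between the lines by -0.789 on the PSI scale (limma adjusted p = 0.0194). All 3 MDA-MB231 control libraries were at exactly 1, and the reads behind the value are unknown.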

How the results depend on the processing

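The number of changed genes was 2638 in DESeq2, 982 without the low-count filter and 796 to 1408 with 1 library left out. The share that rose was 50.4%, and 42.4% in DESeq2. TRA2B kept a log2 change between -3.14 and -3.09 in all settings run. Called events numbered 30 at a PSI difference of at least 0.20, 28 on the PSI scale, 24 with the trend on the mean, 19 without the host gene filter (13 shared), 0 with the PSI range filter and mean trend, 191 with all 12 libraries, and 34 to 69 with 1 library left out, of which 9 to 21 were shared. Chosen after seeing the data, leaving out events at 0 or 1 gave 12, and leaving out mutually exclusive exons gave 30. The TRA2B poison exon difference reversed to -0.0267 without TRA2B replicate 1 and was 0.026 to 0.079 without each other library. Genes that differed between the lines numbered 509 in DESeq2 and 26 to 92 with 1 library left out. Events that differed numbered 3 on the PSI scale, 0 without events at 0 or 1 and 0 to 5 with 1 library left out. The cause of these changes was not tested.

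Replicate numbers are shared between groups. In MDA-MB231, same-numbered libraries deviated together with correlations of 0.045, 0.019 and 0.102, and differently numbered ones with -0.102 to 0.056. So few and small values do not decide whether the samples are paired. With a replicate block 2077 genes and 0 events were called (3289 events had an unadjusted p under 0.05 in limma), 110 genes and 0 events differed between the lines, and 4955 genes differed between the agents. In single named genes the status of the main fit, called or not called, was unchanged in 1358 gene-and-setting cases. A call was lost in 165 cases, and a gene not called in the main fit was called in 58. The depth of splicing events is unknown, which limits every PSI value.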
